A study of Mus musculus with 8 samples.

Results

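Chemokines and their receptors were examined in the hearts of mice that lacked the RNA methyltransferase Mettl3 in cardiomyocytes. The genes were chosen by symbol: every protein-coding gene whose symbol begins with Ccl, Cxcl, Ccr, Cxcr, Cx3cl, Cx3cr, Ackr or Xcr followed by a number. This rule found 41 genes of the 15157 protein-coding genes and 23045 genes in all. Of these, 26 encode ligands, 11 encode signalling receptors and 4 encode atypical receptors. A gene was called measurable when its normalised read count averaged at least 3 over the 8 hearts, which held for 28 of the 41 genes (68.3%), namely 19 ligands, 6 receptors and 3 atypical receptors.

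Total RNA had been sequenced from 4 hearts of Mettl3lox/lox mice (WT) and 4 hearts of Mettl3lox/lox:alphaMHC-MerCreMerpos mice (Mettl3 KO). Both groups carried the floxed Mettl3 alleles, and both had received tamoxifen at 100 µg per g body weight on 7 consecutive days at an age of 10 to 16 weeks. MerCreMer is a Cre recombinase that tamoxifen activates, and the alphaMHC promoter drives it in cardiomyocytes, so the deletion is aimed at these cells and not at the endothelial cells, fibroblasts and leukocytes of the same heart. The labels name no Cre in the WT mice, and the study lists Mettl3lox/lox mice negative for MerCreMer. The presence of Cre therefore differs between the groups as well. The study lists its laboratory mice under C57Bl6, with no separate entry on the background of the Mettl3 line. The time between tamoxifen and harvest was not given in the sources used here.

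Chemokines are small secreted proteins that guide leukocytes along a gradient. They are named by the spacing of their first cysteines as CC, CXC, CX3C or XC chemokines, and they bind G protein-coupled receptors on the migrating cell. Atypical receptors bind chemokines without coupling to G proteins and take them up from the tissue. In the heart, resident macrophages and monocyte-derived macrophages are often told apart by Cx3cr1 and Ccr2, and Cxcl12 from stromal cells and endothelium acts on Cxcr4.

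Values are the deposited normalised read counts. The per-heart totals lay between 2839589 and 2881849 in WT and between 2840184 and 2916986 in Mettl3 KO, and 3 reads correspond to a value of 2.78 to 3.33. Mettl3 itself was 105, 133, 118 and 107 in the WT hearts and 74, 68, 69 and 78 in the KO hearts. The groups did not overlap, with a log2 fold change of -0.67 (standard error 0.10, adjusted p = 0.000184 in the limma fit). The heart samples also hold cells without Cre. The cardiomyocyte markers Myh6, Tnnt2, Actc1, Ryr2, Tnni3 and Pln summed to 21057 to 22273 in WT and to 19602 to 22064 in Mettl3 KO. Without Ryr2, which was lower in Mettl3 KO, the other 5 summed to 11391 to 12558 and to 11627 to 13047. The atrial list differed between the hearts: the atrial ligand gene Bmp10 was 0 in all WT hearts and in Mettl3 KO 1, and 195, 158 and 358 in Mettl3 KO 2, 3 and 4. For Bmp10, Mettl3 KO 1 was thus like the WT hearts and stood apart from the other KO hearts. Bmp10 was found in KO hearts alone, so genotype and a difference in the tissue sampled cannot be told apart for it. The part of the tissue sampled in the other values was not tested.

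The sequence just upstream of 7 of the genes is printed here from RefSeq's GRCm38.p6 table, in which 29 of the 41 genes had an entry. The first lines hold the 120 bases before the start of Ccr2 and Ccl22, which passed the test below, and of Cx3cr1, the receptor most often set against Ccr2. Ccl11, the other gene that passed, had no entry. The other lines show a stretch around a match to the NF-kB motif GGGANTTTC, in capitals, in 4 CXC ligand genes.
Ccr2 (chr9:124102063-124102182, plus strand): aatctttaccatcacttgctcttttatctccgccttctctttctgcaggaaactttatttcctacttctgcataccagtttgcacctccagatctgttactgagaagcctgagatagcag
Cx3cr1 (chr9:120068297-120068416, minus strand): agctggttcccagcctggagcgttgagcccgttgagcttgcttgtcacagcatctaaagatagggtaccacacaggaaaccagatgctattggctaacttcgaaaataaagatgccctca
Ccl22 (chr8:94745564-94745683, plus strand): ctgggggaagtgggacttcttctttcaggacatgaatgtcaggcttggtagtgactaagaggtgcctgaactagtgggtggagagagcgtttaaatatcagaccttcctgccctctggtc
Cxcl1 (chr5:90891154-90891202, plus strand): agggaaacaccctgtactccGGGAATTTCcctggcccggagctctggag
Cxcl2 (chr5:90903782-90903830, plus strand): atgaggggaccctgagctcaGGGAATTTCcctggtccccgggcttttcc
Cxcl3 (chr5:90786008-90786056, plus strand): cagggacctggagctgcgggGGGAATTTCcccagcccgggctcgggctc
Cxcl9 (chr5:92328205-92328253, minus strand): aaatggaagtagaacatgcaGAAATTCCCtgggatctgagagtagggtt

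In Cxcl1, Cxcl2 and Cxcl3, neighbours that encode closely related neutrophil attractants, the motif began 71, 97 and 73 bases before the start. In Cxcl9 it lay on the opposite strand, so its complement is shown. Searched on both strands of the 250 bases before the start, GGGANTTTC was found in 5 of the 29 genes (17.2%; the fifth was Cxcr2) and in 0.977% of 27025 promoters of this length. The ETS motif AGGAAGT, which can share bases with other purine-rich motifs, was found on either strand in 2 of 29 genes (6.9%) and in 7.8% of all promoters. TATAAA, searched on the gene's own strand, was found in 9 of 29 genes (31%) and in 8.12% of all promoters. None of the 3 motifs was found within 250 bases of the start of Ccr2, Cx3cr1 or Ccl22, which says only that these letters are not in that window. Of the genes with the NF-kB motif, Cxcl1 was 8 to 12 in WT and 4 to 12 in Mettl3 KO, Cxcl9 was 22 to 46 and 20 to 35, and Cxcl2, Cxcl3 and Cxcr2 were below the measurable limit.

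The genes lie in clusters (mm39). Of the 41, 12 are on chromosome 11, 10 on chromosome 9 and 8 on chromosome 5. The CC ligand genes Ccl2, Ccl7, Ccl11, Ccl12 and Ccl8 follow each other on chromosome 11 with gaps of 8.26 to 38.9 kb. Ccl22 and Cx3cl1 lie 20.3 kb apart on chromosome 8.

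Levels were ranked between genes only per length, as the normalised read count per kb of exon. Cxcl12 was far above the other genes, at 131 per kb in WT and 122 in Mettl3 KO. The scavenging receptor Ackr3, which removes Cxcl12, came next at 61.2 and 63.4. Cxcl14 followed at 35.0 and 39.0, Ccl6 at 30.6 and 34.3 and Cxcl16 at 25.9 and 26.9. The highest signalling receptor in WT was Cx3cr1 at 20.5 per kb, followed by Cxcr4 at 18.3 and Ccr2 at 12.6. In Mettl3 KO the order was Cxcr4 at 18.8, Ccr2 at 17.7 and Cx3cr1 at 15.7, and the values of these 3 genes overlapped between KO hearts. Of the chemokines that attract neutrophils, Cxcl1 was at 5.33 per kb in WT and 4.53 in Mettl3 KO, and Cxcl2, Cxcl3 and Cxcl5 were below the measurable limit.

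**Figure D1:**
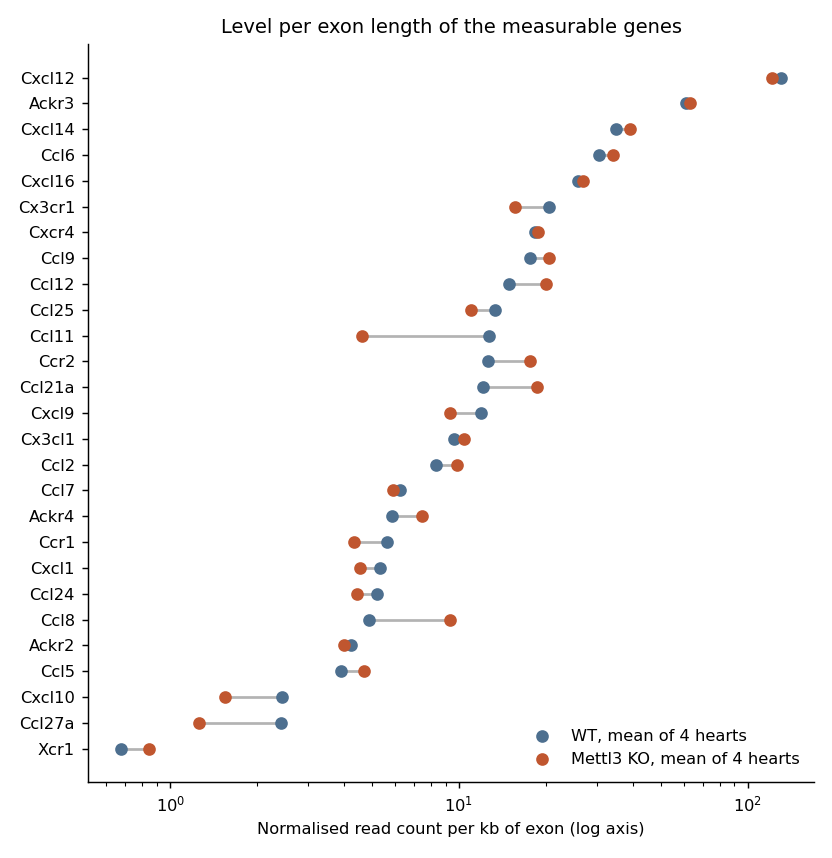
Mean normalised read count per kb of exon (log axis) of 27 measurable genes in 4 WT hearts and 4 Mettl3 KO hearts, each point a group mean. Cxcl12 led in both groups at 131 and 122 per kb, and Xcr1 was lowest.

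Of the 41 genes, 35 had a mean of at least 1 and were tested, and 3 passed the threshold of an adjusted p of 0.05 (limma on log2(value + 1), adjusted over all 20313 genes tested). Ccr2 and Ccl22 were higher and Ccl11 was lower in Mettl3 KO. Ccl22 had a mean of 0.5 in WT and entered the test only through the KO hearts, so its place in this count and among the non-overlapping genes says little. The 3 genes are 8.57% of the genes tested, beside 7.91% of all genes, of which 4.72% were higher and 3.19% lower. Among the measurable genes, 2 of 28 passed (7.14%), beside 9.4% of all genes with a mean of at least 3. An unadjusted p under 0.05 was found for 8 of the 35 genes (22.9%), beside 20.6% of all genes. Ccl22 is among these, and so is Ccr9, which had a mean of 0.25 in Mettl3 KO. Ccr9 entered the test only through the WT hearts, so the place of both genes in this count says little. Of the 28 measurable genes, 6 had an unadjusted p under 0.05. The values of the groups did not overlap for 3 of the 35 genes (8.57%: Ccr2, Ccl25 and Ccl22), beside 11.5% of all genes. All of these shares were near those of all genes. The median log2 fold change was 0.07 over the genes tested and 0.05 over the measurable genes, of which 15 had a positive and 13 a negative estimate, and it was -0.01 over all genes. Genes not tested were Ackr1, Ccl3, Ccl4, Cxcl3, Cxcl11 and Cxcr5, each at 2 or less in every heart.

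**Figure D2:**
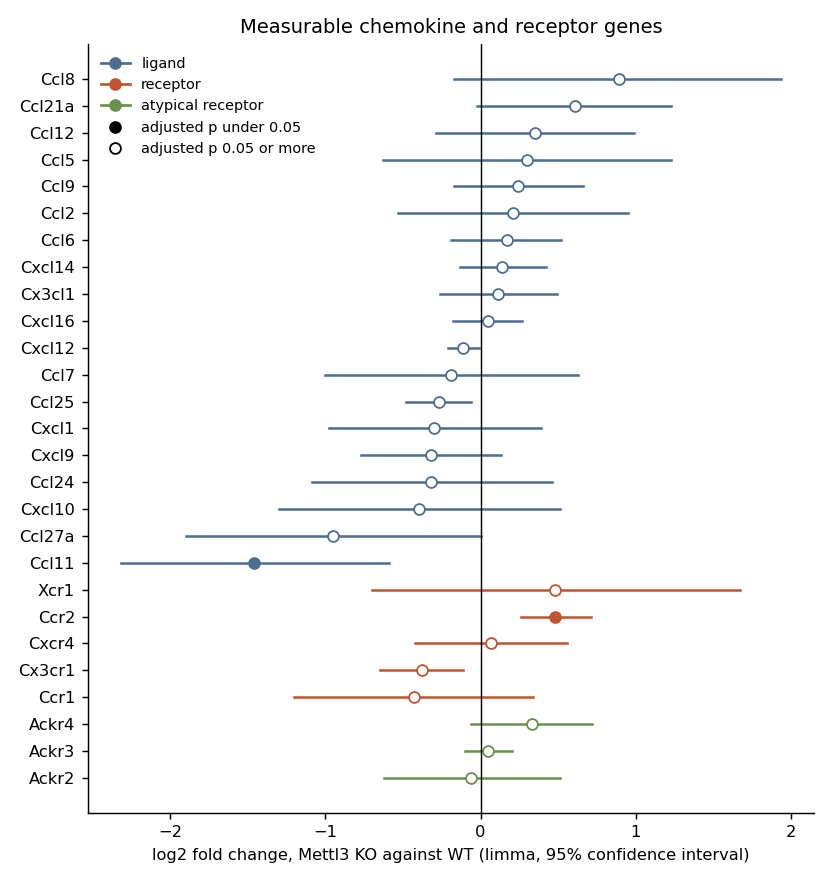
Log2 fold change of Mettl3 KO against WT with its 95% confidence interval (limma, log2(value + 1)) for 27 of the measurable genes, grouped into ligands, receptors and atypical receptors. Filled points, Ccl11 and Ccr2, passed an adjusted p of 0.05; open points did not, and the intervals of the low genes are wide.

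Among the ligands, Cxcl12, the retention signal of bone marrow and stroma, was by far the most abundant. It was 1061, 1078, 1065 and 1096 in the WT hearts and 949, 1108, 992 and 948 in the KO hearts. WT hearts lay close together, and 3 of 4 KO hearts were below all of them while KO 2 was above. The log2 fold change was -0.11 (standard error 0.05, 95% interval -0.21 to -0.01, adjusted p = 0.186 in the limma fit), and without KO 2 it was -0.16 with an adjusted p of 0.0351. Its receptors did not pass the test either. Cxcr4 was 32, 43, 18 and 39 in the WT hearts and 29, 34, 48 and 25 in the KO hearts, and the groups overlapped. Its log2 fold change had an interval of -0.42 to 0.56. Ackr3 was 192, 216, 205 and 207 in the WT hearts and 196, 212, 211 and 230 in the KO hearts, with an interval of -0.10 to 0.20.

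Ccl11, or eotaxin, attracts eosinophils. It was 13, 14, 20 and 8 in the WT hearts and 6, 9, 4 and 1 in the KO hearts. KO hearts were lower on average, and KO 2, at 9, was above WT 4. The mean was 13.8 ± 4.92 in WT and 5.00 ± 3.37 in Mettl3 KO (SD, n = 4 each), with a log2 fold change of -1.46 (standard error 0.42, 95% interval -2.32 to -0.59, adjusted p = 0.0324 in the limma fit). The call was lost when WT 1, WT 2, WT 3, KO 3 or KO 4 was left out, with adjusted p values up to 0.114. The log2 fold change then stayed between -1.46 and -1.27, except without KO 4, where it was -1.0. The other eotaxin, Ccl24, was 6 to 8 in WT and 2 to 9 in Mettl3 KO and did not pass. Fibroblasts are a known source of Ccl11, and 7 of 8 fibroblast markers were higher in Mettl3 KO, beside 4.72% of all genes. The part of the fibroblast content in the Ccl11 value was not tested.

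Ccl22, made by dendritic cells and macrophages, attracts cells that bear Ccr4. It was 0, 0, 1 and 1 in the WT hearts and 4, 3, 5 and 2 in the KO hearts, so the groups did not overlap. These are about 2 reads in all WT hearts and 14 in all KO hearts, a ratio of 7.26 with a 95% counting interval of 1.67 to 65.9. Its mean of 2.0 was below the measurable limit, and it entered the test through the KO hearts alone. The fitted log2 fold change was 1.62 (standard error 0.48, adjusted p = 0.0374 in the limma fit), a value that depends on the pseudocount, and the call was lost in 8 of the 16 other analyses that could include it, with adjusted p values up to 0.128. Without KO 1 the adjusted p was 0.0823.

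Ccl25, a ligand of Ccr9, is known from thymus and gut. It was 96, 102, 109 and 90 in the WT hearts and 89, 83, 76 and 80 in the KO hearts. Every KO heart was below every WT heart, by a small margin. The log2 fold change was -0.27 (SE 0.10, 95% interval -0.48 to -0.06, limma), and the adjusted p of 0.107 missed the threshold. Its receptor gene Ccr9 was 3, 1, 2 and 1 in the WT hearts and 0, 1, 0 and 0 in the KO hearts. Ccr9 was below the measurable limit and entered the test only through the WT hearts, so its values say little. These are 7 reads against 1 read, a ratio of WT to KO of 6.74 with a counting interval of 0.867 to 304. The skin chemokine gene Ccl27a was 6, 7, 7 and 3 in the WT hearts and 1, 7, 1 and 3 in the KO hearts, with a log2 fold change of -0.95 (standard error 0.46, adjusted p = 0.243 in the limma fit). Ccl27a and Ccl21a have near-identical copies in the mouse genome. Multi-mapping reads had been removed, so their values are uncertain.

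The Ccr2 ligand genes Ccl2, Ccl7 and Ccl12 did not pass the test. Ccl2, the main monocyte attractant, was 7, 13, 5 and 13 in the WT hearts and 18, 13, 8 and 6 in the KO hearts, with an interval of -0.53 to 0.95 around a log2 fold change of 0.21. Ccl7 lay between 2 and 9 and Ccl12 between 6 and 16 over all hearts. Per kb of exon, Ccl12 was at 14.9 in WT, beside 12.6 for Ccr2 itself, and it was above Ccr2 in Mettl3 KO as well. Neither Ccl7 nor Ccl12 passed. Ccl8, their neighbour on chromosome 11, was 0 to 5 in WT and 2 to 7 in Mettl3 KO (adjusted p = 0.351 in the limma fit, log2 fold change 0.89, standard error 0.51).

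The remaining ligands did not pass the test. Cxcl14 was 56 to 72 in WT and 58 to 84 in Mettl3 KO, and Cxcl16, the membrane-bound ligand of Cxcr6, was 72, 81, 80 and 80 in the WT hearts and 94, 72, 84 and 75 in the KO hearts. The interval of Cxcl16 was -0.18 to 0.27, and its receptor gene Cxcr6 was 2, 2, 0 and 1 in the WT hearts and 3, 1, 1 and 6 in the KO hearts. The macrophage chemokine genes Ccl6 and Ccl9 were 43 to 73 and 36 to 81 in WT, and 44 to 72 and 47 to 80 in Mettl3 KO. The membrane-bound fractalkine gene Cx3cl1 was 37, 49, 35 and 30 in the WT hearts and 53, 39, 41 and 31 in the KO hearts. Ccl5, a ligand of Ccr1, was 3, 4, 1 and 7 in the WT hearts and 6, 6, 2 and 4 in the KO hearts. Ccl21a, the lymphatic ligand of Ccr7, was 16, 10, 10 and 6 in the WT hearts and 19, 15, 21 and 10 in the KO hearts, with a log2 fold change of 0.61 (95% interval -0.02 to 1.23). Of the interferon-induced ligands, Cxcl9 was 22 to 46 in WT and 20 to 35 in Mettl3 KO, Cxcl10 was 2 to 9 and 2 to 5, and Cxcl11 was not tested.

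Among the receptors, Ccr2 was the one that passed the test, and it did so in every analysis run. It is the receptor through which monocytes leave the bone marrow and enter tissue. Ccr2 (ENSMUSG00000049103, chr9:123901987-123913594 in mm39, plus strand) was 71, 91, 95 and 85 in the WT hearts and 137, 124, 105 and 113 in the KO hearts. Every KO heart was above every WT heart. The mean was 85.5 ± 10.5 in WT and 120 ± 13.9 in Mettl3 KO (SD, n = 4 each), a log2 fold change of 0.48 (standard error 0.11, 95% interval 0.26 to 0.71, adjusted p = 0.00639 in the limma fit). The call held in all 17 other analyses, with log2 fold changes of 0.40 to 0.54 and adjusted p values of 0.00396 to 0.0339, and without KO 1 it was 0.42. In RNA from tissue of mixed cells, more Ccr2-bearing cells and more Ccr2 RNA per cell cannot be told apart. The part of atrial tissue in the Ccr2 value was not tested.

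**Figure D3:**
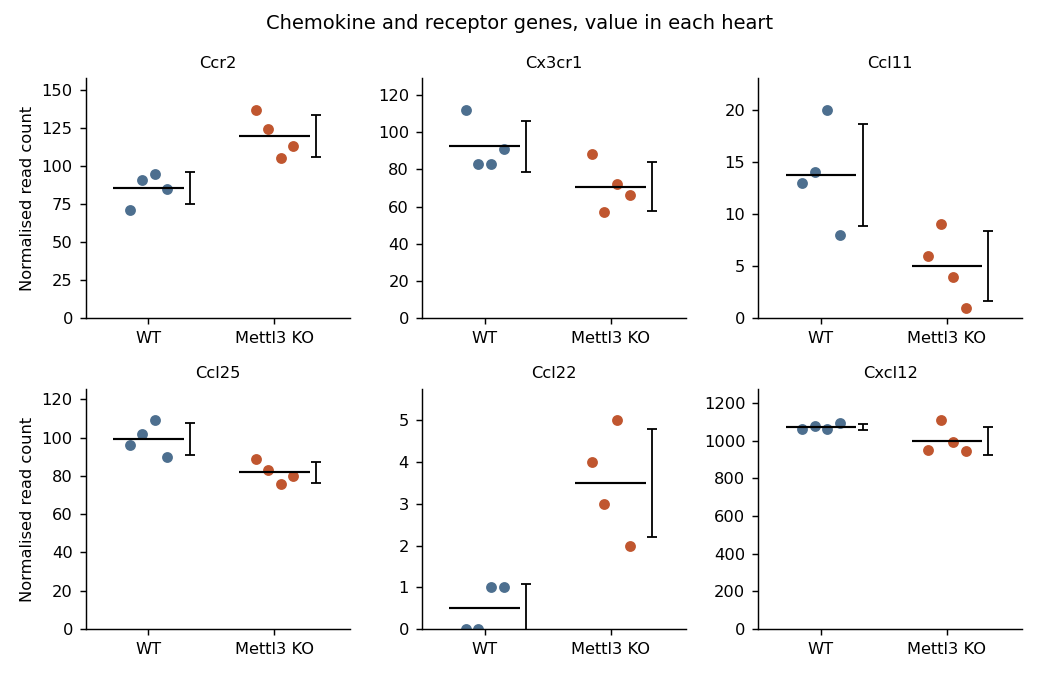
Normalised read count in each heart for Ccr2, Cx3cr1, Ccl11, Ccl25, Ccl22 and Cxcl12 in 4 WT and 4 Mettl3 KO hearts; lines are means and bars are SD. Ccr2 lay between 71 and 95 in WT and between 105 and 137 in Mettl3 KO, while Ccl11 and Cx3cr1 overlapped between the groups.

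Cx3cr1, the fractalkine receptor of resident macrophages and patrolling monocytes, pointed the other way. It was 112, 83, 83 and 91 in the WT hearts and 88, 57, 72 and 66 in the KO hearts. KO 1, at 88, was above 2 of the 4 WT hearts, and the other 3 KO hearts were below all of them. The log2 fold change was -0.38 (SE 0.13, 95% interval -0.65 to -0.11, limma), and the adjusted p of 0.0743 missed the threshold. Without KO 1 it was -0.49 with an adjusted p of 0.0164, whereas without WT 1 the adjusted p was 0.260. A limma fit with a replicate block gave an adjusted p of 0.0417, though no pairing of the hearts by replicate number was seen.

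Ccr1, a receptor of inflammatory CC chemokines on myeloid cells, was 15, 7, 25 and 17 in the WT hearts and 25, 7, 10 and 7 in the KO hearts, where KO 1 was the highest and the other KO hearts were at or near the lowest WT heart. Its log2 fold change had an interval of -1.20 to 0.34 around an estimate of -0.43, which was -0.81 without KO 1 (adjusted p = 0.175 in the limma fit). Ccr7 was 1, 2, 1 and 0 in the WT hearts and 2, 1, 2 and 0 in the KO hearts, Cxcr2 lay between 1 and 6 over all hearts, and Xcr1, a marker of cross-presenting dendritic cells, was 0 to 6 in WT and 1 to 7 in Mettl3 KO.

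Ccr2 was also set against Cx3cr1 within each heart, a ratio that was chosen after the values were seen and carries no test. Its values were not divided by exon length, so it compares hearts and not the levels of both genes. The ratio of Ccr2 to Cx3cr1 values was 0.634, 1.10, 1.14 and 0.934 in the WT hearts and 1.56, 2.18, 1.46 and 1.71 in the KO hearts. All KO hearts were above all WT hearts, with a mean difference of 0.88 on the log2 scale (0.69 to 0.98 when 1 heart was left out).

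**Figure D4:**
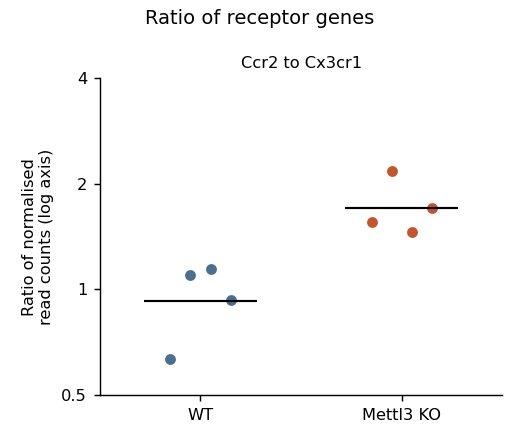
Ratio of the normalised read counts of Ccr2 to Cx3cr1 in each heart (log axis), with lines at the geometric mean of 4 WT and 4 Mettl3 KO hearts. The WT hearts lay between 0.634 and 1.14 and the KO hearts between 1.46 and 2.18.

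The atypical receptors other than Ackr3 had lower levels than Ackr3 in both groups. Ackr2, which scavenges inflammatory CC chemokines, was 18, 9, 14 and 12 in the WT hearts and 13, 14, 14 and 9 in the KO hearts. Ackr4, which scavenges Ccl21 and Ccl25, was 24, 31, 34 and 37 in the WT hearts and 33, 56, 33 and 39 in the KO hearts, with a log2 fold change of 0.33 (95% interval -0.06 to 0.72). Ackr1, known from venules and red blood cells, was 1, 0, 0 and 1 in the WT hearts and 0, 1, 2 and 1 in the KO hearts. None of the 3 that were tested passed with limma or voom, and 0 had an unadjusted p under 0.05.

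Markers of the cells that bear these receptors were read beside them. Of 10 macrophage markers, 1 passed, a share close to the 9.4% of all genes with a mean of at least 3. The scavenger receptor gene Cd163 was 255, 189, 220 and 178 in the WT hearts and 161, 168, 162 and 161 in the KO hearts (log2 fold change -0.35, limma, adjusted p = 0.0168). This call was lost without WT 1, where the adjusted p was 0.0862, and without WT 3, KO 3 or KO 4. The macrophage markers summed to 1285 to 1520 in WT and to 1242 to 1445 in Mettl3 KO, and Csf1r, C1qa, Adgre1 and Mrc1 did not pass. The 4 resident macrophage markers, which include Cd163, summed to 298 to 431 and to 297 to 331. Of the monocyte markers, 4 of 6 were in the table and none passed with limma or voom, while 1, Vcan, had an unadjusted p under 0.05. They summed to 422 to 486 in WT and to 450 to 543 in Mettl3 KO, mostly through Vcan, which fibroblasts also express. Without Vcan the other 3 summed to 15 to 26 in WT and to 9 to 17 in Mettl3 KO. Plac8 lay at 3 or less in every heart, and Ly6c2 and Chil3 were not analysed here. Ccr2 was thus higher while the summed macrophage markers overlapped between the groups; the part of cell composition in the Ccr2 value was not tested.

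Dendritic cells carry Ccr2 as well. Of 6 dendritic cell markers, 1 was higher and 1 was lower, beside 4.72% of all genes that were higher and 3.19% that were lower. Cd209a, a marker of monocyte-derived and conventional type 2 cells, was 1, 3, 2 and 1 in the WT hearts and 7, 10, 9 and 6 in the KO hearts. All KO hearts were higher, with a log2 fold change of 1.75 (standard error 0.39, adjusted p = 0.00581 in the limma fit). The values rest on few reads, about 7 in all WT hearts and 31 in all KO hearts. Zbtb46, which endothelial cells also express, was lower (log2 fold change -0.26, adjusted p = 0.0373), a call lost without WT 1, WT 2, WT 3, KO 2, KO 3 or KO 4, with adjusted p values up to 0.126. Flt3, Clec9a, Itgax and Xcr1 did not pass, and the 6 genes summed to 226 to 261 in WT and to 200 to 231 in Mettl3 KO, mostly through Zbtb46. The other 5, with Cd209a among them, summed to 22 to 33 in WT and to 33 to 44 in Mettl3 KO. Flt3, Clec9a, Itgax and Xcr1 each overlapped between the groups. Clec9a had a log2 fold change of -0.24, and Flt3, Itgax and Xcr1 had positive estimates. Whether the Cd209a and Ccr2 reads come from the same cells was not tested.

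**Figure D5:**
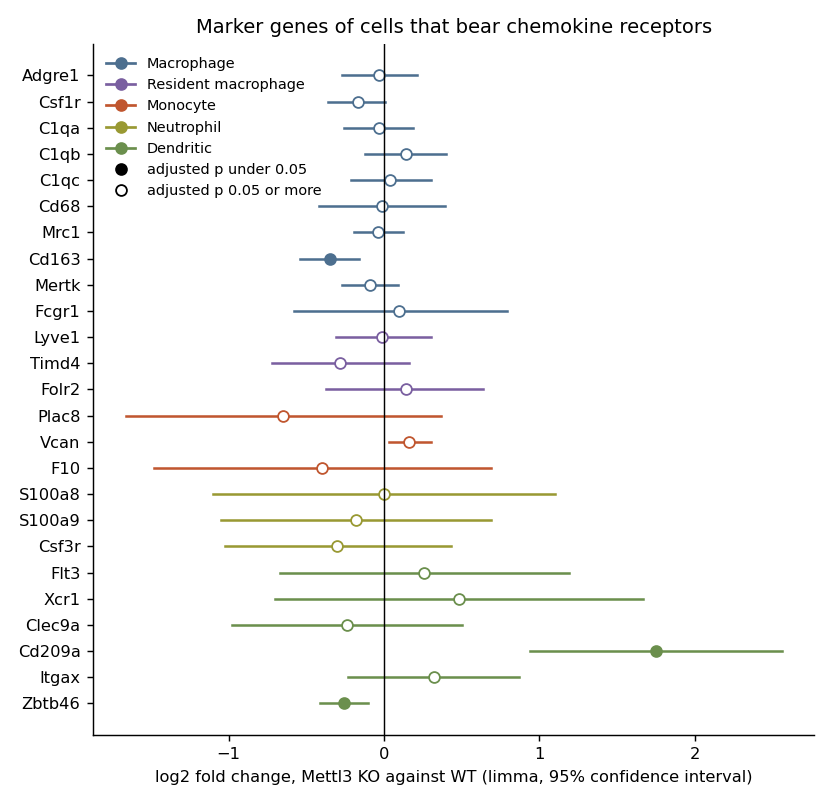
Log2 fold change of Mettl3 KO against WT with its 95% confidence interval (limma) for tested marker genes of macrophages, resident macrophages, monocytes, neutrophils and dendritic cells. Filled points passed an adjusted p of 0.05: Cd209a was higher, and Cd163 and Zbtb46 were lower.

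The other marker lists are given beside the 4.72% of all genes that were higher and the 3.19% that were lower. Fibroblast markers were higher for 7 of 8 genes and summed to 3493 to 3883 in WT and to 4398 to 5060 in Mettl3 KO. Blood endothelial markers were lower for 4 of 8, at 4952 to 5121 and 4261 to 4730. Atrial markers were higher for 4 of 5 with limma and 3 of 5 with voom. Of these, Bmp10 entered the test only through KO 2, KO 3 and KO 4, and KO 1 lay within the WT range for Myl7 (23, WT 0 to 26) and Sln (10, WT 0 to 12). Epicardial markers were higher for 1 of 5 (Upk3b). Lymphatic markers were higher for 2 of 6, Pdpn and Mmrn1. Of the cardiomyocyte markers Ryr2 alone passed, of 8 mural cell markers Abcc9 and of 4 mast cell markers Kit, and these 3 genes were lower. The median log2 fold changes of these lists were 0.07, 0.03 and -0.08, and the mural cell markers summed to 4502 to 4901 in WT and to 4191 to 4496 in Mettl3 KO. These sums include Abcc9, whose mean was 2180.2 in WT and 1902.0 in Mettl3 KO. The other mural cell markers each overlapped between the groups. Acta2, Myh11, Tagln and Cnn1 had positive estimates, and Rgs5, Pdgfrb and Kcnj8 had negative ones. The Kit call was lost in 8 of 17 other analyses, voom among them, with adjusted p values up to 0.178. The mast cell gene Cpa3 was 2 to 6 in WT and 7 to 12 in Mettl3 KO (adjusted p = 0.0551 in the limma fit). Of the tested markers of neutrophils (3 of 6), T cells (6 of 6), B cells (4 of 4), NK cells (2 of 4), red blood cells and platelets (6 of 6) and adipocytes (2 of 4), none passed with limma or voom. At an unadjusted p under 0.05 stood 1 gene each of the B cell, red blood cell and platelet, and adipocyte lists, and 0 of the other 3. Neutrophil markers summed to 8 to 24 in WT and to 11 to 24 in Mettl3 KO, and T cell markers to 17 to 27 and to 19 to 25. The part of these shifts in the chemokine values was not tested.

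Genes that act with chemokines were read from 5 lists. Of 90 tested genes on them, 6 passed (6.67%), beside 7.91% of all genes, and their median log2 fold change was -0.03. Of 7 tested genes of chemokines, other attractants and receptors that the symbol rule leaves out (Pf4, Ppbp, Mif, Cmklr1, Ccrl2, Gpr35 and Rarres2), none passed with limma or with voom. An unadjusted p under 0.05 was found for 1 of them (Rarres2, the gene of chemerin, log2 fold change 0.32). Of 30 genes of receptor signalling and desensitisation, 2 were higher, beside 4.72% of all genes. Grk5, a kinase that desensitises G protein-coupled receptors and is abundant in cardiomyocytes, was 353, 336, 383 and 322 in the WT hearts and 487, 463, 460 and 496 in the KO hearts (adjusted p = 2.50e-05 in the limma fit, log2 fold change 0.45, standard error 0.06). The kinase gene Ptk2b was 34 to 64 in WT and 65 to 81 in Mettl3 KO (log2 fold change 0.62, adjusted p = 0.0162), a call that was lost without WT 2, WT 4, KO 3 or KO 4, with adjusted p values up to 0.0742. The shared transducers of the leukocyte receptors, such as Gnai2, Rac2 and Dock2, did not pass.

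The lists that follow are again read beside the 4.72% of all genes that were higher and the 3.19% that were lower. Of 18 tested genes that cut or present chemokines, Mmp2, a protease that can cleave Cxcl12 and Ccl7, was higher: it was 254 to 313 in WT and 340 to 441 in Mettl3 KO (log2 fold change 0.47, limma, adjusted p = 0.000273). It is also a fibroblast gene. Of 28 tested upstream inducers, 1 passed, the endotoxin receptor gene Tlr4 (160 to 214 in WT, 182 to 255 in Mettl3 KO, log2 fold change 0.35, adjusted p = 0.0351), a call that was lost in 8 of 17 other analyses. Tnf, Il1b and Nfkb1 were among those that did not pass. Of 8 genes of hypoxia and leukocyte adhesion, Vcam1, on which leukocytes arrest, was higher at 170 to 238 in Mettl3 KO against 126 to 173 in WT (log2 fold change 0.47, adjusted p = 0.00447). Vegfa was lower, at 781 to 876 against 924 to 1048 (log2 fold change -0.26, adjusted p = 0.00109), and Hif1a, which also induces Cxcl12, did not pass.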

How the data were processed

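Stranded libraries of total RNA from 8 mouse hearts were read from 1 end. According to the methods and processing notes, the authors trimmed reads (Trimmomatic 0.39), aligned them to mm39 (STAR 2.7.11a), removed duplicates (Picard 3.1.1), multi-mapping, ribosomal and mitochondrial reads, counted exons by strand (featureCounts 2.0.4) and normalised with DESeq2 1.36.0. The deposited values are a score: normalised read counts rounded to whole numbers. They are not raw counts, so the count test was not used. Reads per heart, estimated from the spacing of low values, lay between 2631904 and 3061209.

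Values were log2-transformed with a pseudocount of 1, which understates changes of low genes. Genes with a mean of at least 1 were tested with limma 3.58.1 (R 4.3.3; empirical Bayes with a mean-variance trend, two-sided, Benjamini-Hochberg over all 20313 genes). The procedure was tested on simulated data. Exon lengths came from GENCODE M21 by gene identifier. Per-heart values are given for genes with an unadjusted p under 0.05, the 3 ligands and 3 receptors with the highest mean, chosen ligand-receptor pairs and the atypical receptors. Ccr1, where 1 heart stood apart, and the marker genes given per heart were added after their values were seen. The genes and lists were chosen with earlier results of these data known. The labels do not say more of the replicates than that they are separate samples. The p-values measure the spread between these samples, each called a heart here. Whether each came from a separate mouse was not stated in the labels. No columns of other samples were found (0). Other pseudocounts, filters, scalings, voom, a replicate block and leaving out each heart were tried. Intervals of read ratios cover counting error only. Some genes that enter the counts are not reported here.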

Additional observations from a re-analysis of the deposited data

Results flagged for a closer look

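Among 54 groups of 4 values tested, 2 held a heart far from the others by Dixon's ratio of the gap to the range, where chance alone gives about 2.7. In WT, Cxcl16 was 72 in WT 1 and 80, 80 and 81 in the others (ratio 0.889). In Mettl3 KO, Ccr1 was 25 in KO 1 and 7, 7 and 10 in the others (ratio 0.833). KO 1 is also the KO heart in which Bmp10 was 0.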

How the results depend on the processing

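Ccr2 passed in all 17 other analyses. The number of genes of the family past the threshold was 3, and 1 to 3 when 1 heart was left out. The number higher in Mettl3 KO was 2, and it was 1 with only genes of mean at least 3, 1 with voom, 1 with voom on estimated reads, 1 with the replicate block and 1 to 2 when 1 heart was left out. Ccl22 was the gene lost. The number lower in Mettl3 KO was 1, and it was 2 with the replicate block, where Cx3cr1 passed (adjusted p = 0.0417), and 0 to 2 when 1 heart was left out. Over all genes, 1607 passed, and 1019 to 1596 when 1 heart was left out. Deviations of hearts with the same number correlated by -0.04 to 0.09, and those of hearts with different numbers by -0.18 to 0.20. These values show no pairing by number, though they cannot exclude it. When 1 heart was left out, the log2 fold changes of the family members reported here that changed sign were those of Cxcl16 (-0.02 to 0.10), Cxcr4 (-0.19 to 0.22), Cx3cl1 (-0.02 to 0.24), Ackr2 (-0.22 to 0.09), Ccl2 (-0.04 to 0.44), Ccl5 (-0.06 to 0.61), Ccl7 (-0.50 to 0.08), Ccl24 (-0.55 to 0.03), Xcr1 (-0.05 to 0.89) and Ccr7 (-0.15 to 0.49). No other scaling or pseudocount changed the sign of one of these family members. The cause of these changes was not tested. At 3 reads to a value of about 3, values of genes near that level rest on few reads.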
